A study of Mus musculus with 35 samples.

Results

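The genes described here copy DNA once per cell division. They are 45 mouse genes of replication licensing and of the replication fork, listed by name, and each of them was found among the 55401 genes of the count table. Licensing loads the MCM2-7 helicase as an inactive ring onto origins marked by the origin recognition complex, with the loaders Cdc6 and Cdt1 and the inhibitor geminin. At the start of S phase the DDK kinase and a set of activators turn the ring into a moving helicase with Cdc45 and GINS, and primase, polymerases, the sliding clamp PCNA and fork protection factors then follow it. Most of these genes are transcribed in cells that cycle and are held low in resting cells. Microglia, the resident macrophages of the brain, divide and spread through the brain in the first postnatal weeks and renew slowly in the adult.

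CD45+ cells were collected from whole brains of wild-type C57BL/6 mice by immunopanning, a capture of dissociated cells on a dish coated with antibody, and each mouse gave 1 mRNA library. The mice were untreated and were taken at postnatal day 6 (P6), postnatal day 15 (P15) or 8 weeks, as females and males. The table held 35 mice, and the values below are over 34 of them, 10 at P6 (4 females, 6 males), 12 at P15 and 12 at 8 weeks (6 of each sex), without P6 female 6. The study removed 1 mouse as an outlier, and this is the only one of the 35 that is missing from its plotted data. CD45 is carried by all white blood cells, so the captured cells can include other immune cells, and these are whole-population libraries in which fewer dividing cells and less of a transcript per cell cannot be told apart.

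Counts on genes came to between 23316107 and 38965078 per mouse. The 10 microglia markers, among them Tmem119 and P2ry12, summed to between 8478 and 15305 CPM (counts scaled to a library size common to all mice) at P6 and between 23674 and 33585 CPM at 8 weeks, and 10 of 10 were higher at 8 weeks than at P6. Markers of other cells were also present and moved with age. The 9 markers of neural progenitors and immature neurons summed to between 661 and 2037 CPM at P6, 124 and 845 CPM at P15 and 89.0 and 206 CPM at 8 weeks, and 9 of 9 fell in both steps. Those of cerebellar granule cell progenitors, a dividing cell type of the early postnatal brain, summed to between 60.3 and 795 CPM at P6 and between 27.5 and 101.2 CPM at 8 weeks, and 6 of 7 fell from P6 to 8 weeks, with Atoh1 at 0 in at least 1 mouse of each age. P6 female 6 had the lowest microglia markers of all 35 mice (3760 CPM) and the highest neuron markers (1528 CPM). In that mouse 43 of the 45 replication genes lay below every other P6 mouse, with a median of 59.7% of the P6 mean, as did 31.7% of all genes tested, whose median was 94.1%. Of the 34 mice used, P6 male 2 had the lowest level of its age in 27 of the 45 genes, P15 female 2 in 20 and P15 male 1 in 16, and 8 weeks male 4 had the highest in 21. For these mice the share over all genes tested was not counted.

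To show what precedes these genes in the genome, promoter stretches of 9 members are printed, from 150 bases before to 30 bases after the RefSeq transcription start on GRCm38.p6, 5′ to 3′ on the strand of the gene. They are the 5 genes of the MCM2-7 ring for which a window was at hand, then Orc1 and Mcm10 as members of the largest falls, then Pold3 and Gins3 as members of the smallest. Capitals mark 4 spellings of the binding sequence of E2F factors, which drive S-phase genes (TTTCCCGC, TTTGGCGC, TTTCGCGC and TTTGCCGC), and the CCAAT box bound by NF-Y (CCAAT), on either strand. An E2F word can run into another, as in Mcm6, or into a CCAAT box, as in Mcm7. The printed stretch of Mcm2 held neither word, with a CCAAT box further upstream at -175, and a second start of Mcm7, not printed, had no E2F word.
Mcm2, chr6:88898751-88898930, minus strand: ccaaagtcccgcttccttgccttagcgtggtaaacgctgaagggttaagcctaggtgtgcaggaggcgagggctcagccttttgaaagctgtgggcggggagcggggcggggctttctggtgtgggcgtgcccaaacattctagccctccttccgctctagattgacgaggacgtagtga
Mcm3, chr1:20820283-20820462, minus strand: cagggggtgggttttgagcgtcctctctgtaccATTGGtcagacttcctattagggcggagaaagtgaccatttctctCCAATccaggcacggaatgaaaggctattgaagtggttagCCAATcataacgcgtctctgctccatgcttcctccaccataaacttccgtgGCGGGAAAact
Mcm5, chr8:75109359-75109538, plus strand: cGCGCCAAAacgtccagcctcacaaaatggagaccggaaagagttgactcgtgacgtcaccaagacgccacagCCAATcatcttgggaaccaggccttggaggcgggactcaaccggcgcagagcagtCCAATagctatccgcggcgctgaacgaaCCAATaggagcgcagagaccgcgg
Mcm6, chr1:128359676-128359855, minus strand: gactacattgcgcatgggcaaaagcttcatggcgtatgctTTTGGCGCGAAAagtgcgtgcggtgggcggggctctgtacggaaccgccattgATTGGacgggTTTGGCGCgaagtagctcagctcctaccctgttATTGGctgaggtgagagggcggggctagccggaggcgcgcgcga
Mcm7, chr5:138171854-138172033, minus strand: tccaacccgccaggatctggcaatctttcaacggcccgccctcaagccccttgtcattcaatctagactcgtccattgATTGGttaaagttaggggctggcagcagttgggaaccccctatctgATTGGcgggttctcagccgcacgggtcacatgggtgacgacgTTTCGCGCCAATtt
Orc1, chr4:108579304-108579483, plus strand: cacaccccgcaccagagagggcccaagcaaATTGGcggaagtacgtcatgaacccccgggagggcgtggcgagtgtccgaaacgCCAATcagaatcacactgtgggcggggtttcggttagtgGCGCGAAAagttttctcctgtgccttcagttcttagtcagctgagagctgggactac
Mcm10, chr2:5012762-5012941, minus strand: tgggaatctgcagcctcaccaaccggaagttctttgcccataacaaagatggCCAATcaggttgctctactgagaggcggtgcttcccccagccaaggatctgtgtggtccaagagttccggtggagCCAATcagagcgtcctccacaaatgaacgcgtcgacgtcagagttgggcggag
Pold3, chr7:100121473-100121652, minus strand: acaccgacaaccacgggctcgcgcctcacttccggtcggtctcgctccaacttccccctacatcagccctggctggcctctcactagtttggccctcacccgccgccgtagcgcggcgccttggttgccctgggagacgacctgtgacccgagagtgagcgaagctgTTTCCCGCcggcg
Gins3, chr8:95633409-95633588, plus strand: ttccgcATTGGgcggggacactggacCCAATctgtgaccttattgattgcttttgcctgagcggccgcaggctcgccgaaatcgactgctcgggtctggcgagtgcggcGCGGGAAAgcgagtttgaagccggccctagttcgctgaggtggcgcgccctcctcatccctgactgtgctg

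Promoter windows of 300 bases (250 before to 50 after the start) were at hand for 35 of the 45 genes, and 15 of the 35 held at least 1 E2F word. Of the 41 windows of these genes 36.6% held one, against 2.26% of all 32851 windows of the same length. A CCAAT box was in 51.2% of the member windows and in 37.4% of all windows, and the cell cycle homology word TTTGAA, found before many mitosis genes, in 19.5% and 17.9%. The 15 genes with a word had log2 fold changes (log2FC) from P6 to 8 weeks between -4.80 (Orc1) and -0.08 (Pold3) with a median of -2.52, and the 20 without one lay between -5.41 (Mcm10) and -1.08 (Rpa1) with a median of -2.31. These are counts of letters, and binding of a factor was not measured. Windows of Mcm4, Gmnn, Gins1, Gins2, Gins4, Prim2, Pole, Rfc2, Dscc1 and Tipin were not searched.

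The first question was how far the genes fell and when. From P6 to P15 each of the 45 genes fell (edgeR quasi-likelihood test, Benjamini-Hochberg adjusted p, FDR, below 0.05), with a median log2FC of -2.001, and 35 fell by more than 2-fold in a test against that threshold. Of all 17612 genes tested 31.4% fell in this step and 4.85% fell by more than 2-fold, with a median log2FC over all genes of -0.01. In 44 of the 45 genes, all but Gins4, every P15 mouse lay below every P6 mouse, which held for 7.72% of all genes tested. The median level at P15 was 25.1% of that at P6.

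From P15 to 8 weeks the fall was smaller and less general. A further 36 genes fell (23.9% of all genes tested), with a median log2FC over the 45 of -0.56, and 12 fell by more than 2-fold (3.07% of all genes). These were Mcm10, Ticrr, Cdc6, Pole, Chaf1a, Clspn, Orc1, Chaf1b, Mcm5, Timeless, Mcm2 and Cdc45. Fewer passed 2-fold in other fits, 9 by limma-voom and 10 by DESeq2. With these ages fitted alone 10 of 44 genes tested passed, and Orc1 was not tested. Where at least 10 counts in every mouse were required, 8 of 39 passed. Pold3 rose, as did 24.0% of all genes tested, and 8 genes passed in neither direction (Gins3, Gins4, Pola1, Prim2, Pold2, Pcna, Rfc2 and Tipin). In 11 genes every mouse at 8 weeks lay below every P15 mouse, against 1.72% of all genes, and this number was 13 without P15 male 1, 13 without P15 female 2 and 16 without 8 weeks male 4.

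Over both steps 44 of the 45 genes fell, and 40 fell by more than 2-fold (36.6% and 12.4% of all genes tested), with a median log2FC of -2.39 and a median level at 8 weeks of 18.9% of that at P6. In 43 genes the 8-week mice lay wholly below the P6 mice, against 14.8% of all genes, and the exceptions were Gins3 and Pold3. At 8 weeks 14 genes were below 10% of their P6 level and 4 were above 50% (Gins3, Gins4, Pold3 and Rfc2).

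**Figure D1:**
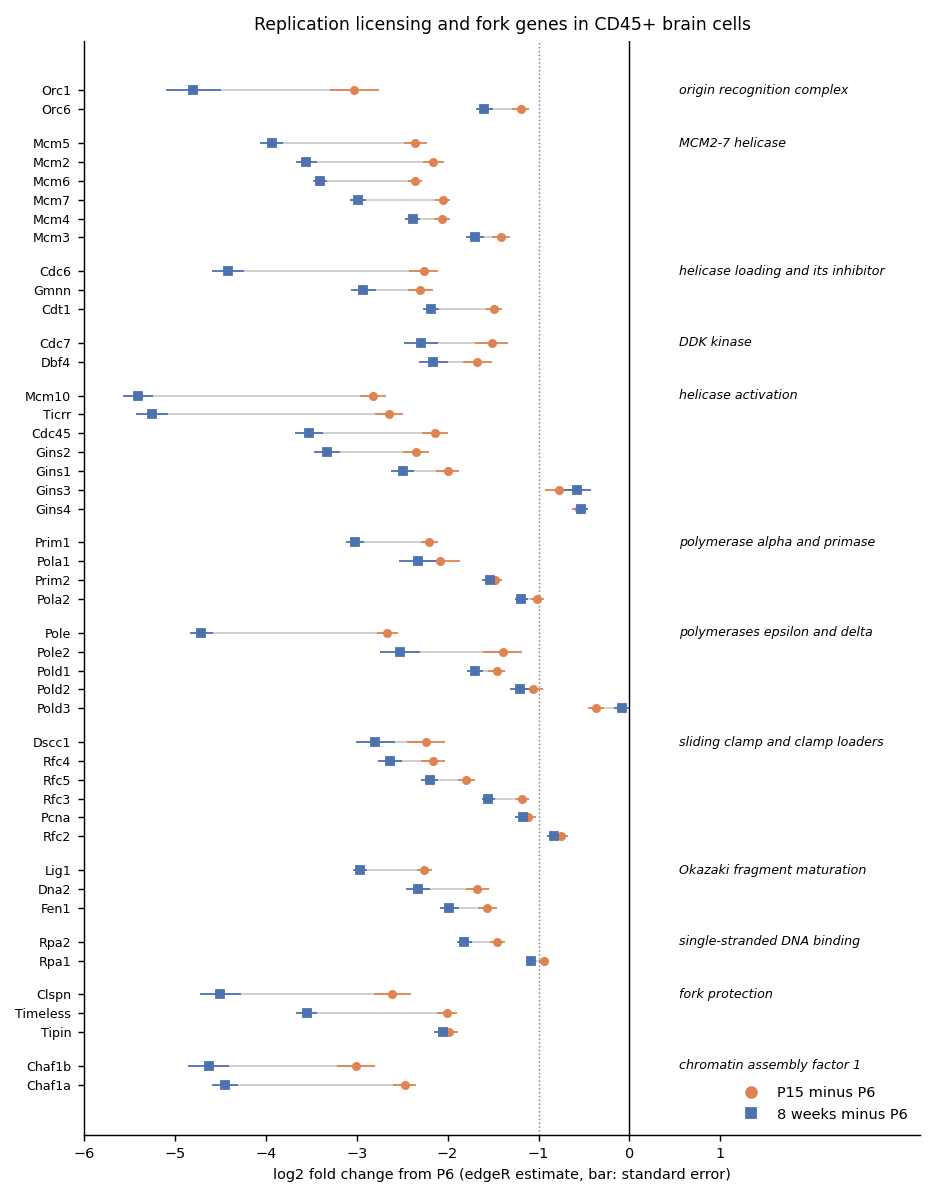
Log2 fold change of each of the 45 genes from P6 to P15 (circles) and from P6 to 8 weeks (squares), with standard errors as bars, ordered by role in replication. The dotted line marks a 2-fold fall and the solid line no change. The squares of Mcm10, Ticrr and Orc1 lie furthest left, at -5.41, -5.25 and -4.80, and that of Pold3 lies at -0.08.

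The timing was tested as the difference between both log2 changes. In 36 of the 45 genes the log2 fall from P6 to P15 was larger than that from P15 to 8 weeks (edgeR, FDR below 0.05), and the estimated difference had this sign in each of the 45. Limma-voom called 36 and DESeq2 38. A difference of that sign was called in 15.8% of all genes tested. The 9 genes in which the steps were not told apart were Mcm10, Ticrr, Cdc6, Clspn, Chaf1a, Orc1, Timeless, Cdc7 and Pole2. The steps were unequal in length, at 9 and 41 days, and per day the median log2 fall was 0.222 in the first and 0.0136 in the second, with the first the faster in each of the 45 genes. By P15 the 44 genes that fell had completed a median of 75.9% of their log2 fall.

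**Figure D2:**
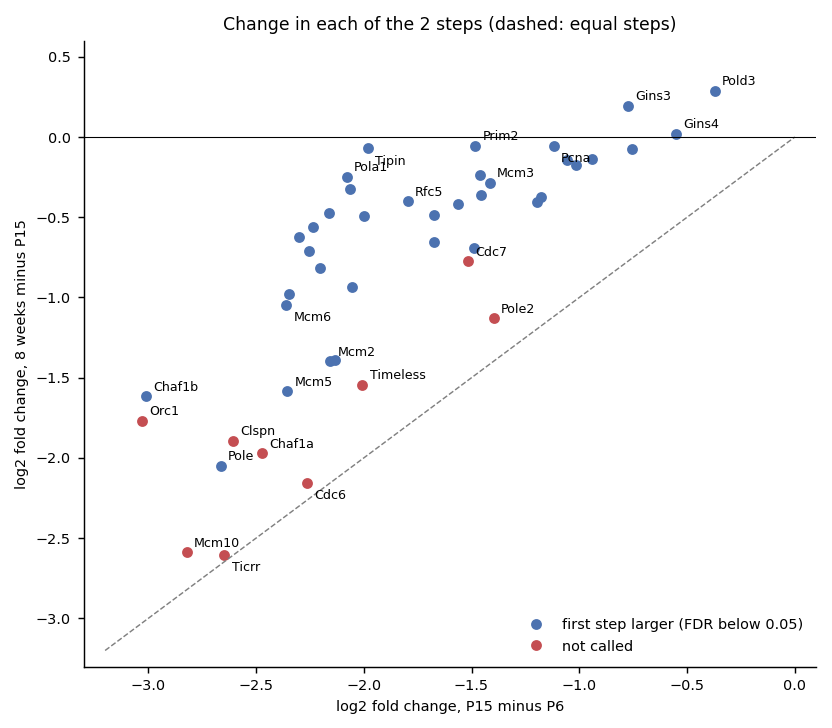
Log2 fold change from P6 to P15 (x axis) against that from P15 to 8 weeks (y axis) for the 45 genes. Blue points are the 36 genes with a larger log2 fall in the first step, red points the 9 in which the steps were not told apart, and points on the dashed line would have equal steps. Mcm10 and Ticrr lie close to the line, while Tipin, Prim2 and Pcna lie near 0 on the y axis.

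The 6 subunits of the MCM2-7 helicase, which unwinds DNA ahead of the fork, fell in both steps and each fell by more than 2-fold from P6 to P15. They did not fall equally. Mcm2 ran from 111 to 161 CPM (median 135) in the P6 mice, from 18.5 to 36.7 (median 31.4) at P15 and from 8.16 to 19.7 (median 10.9) at 8 weeks. Mcm5 ran from 136 to 197 CPM (median 169), from 20.8 to 49.99 (median 32.6) and from 8.34 to 18.8 (median 9.90). Mcm6 ran from 139 to 189.8 CPM (median 163), from 24.96 to 38.3 (median 32.0) and from 13.1 to 19.7 (median 15.6). In these 3 genes the P6 and P15 mice did not overlap, and the 8-week mice lay below every P15 mouse for Mcm5 and Mcm6 and overlapped for Mcm2 through 8 weeks male 4 (19.7 CPM, the next at 13.3) and P15 female 2 (18.5 CPM, the next at 27.2).

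Mcm7 ran from 122 to 175 CPM (median 159.9) at P6, from 30.4 to 53.2 (median 36.7) at P15 and from 16.9 to 27.9 (median 18.6) at 8 weeks, again with no overlap between ages. Mcm4 ran from 74.3 to 99.5 CPM (median 85.4), from 12.3 to 24.7 (median 20.02) and from 13.3 to 19.4 (median 16.5). Mcm3 ran from 156 to 226 CPM (median 189), from 42.6 to 86.9 (median 69.2) and from 46.8 to 80.2 (median 55.9). For Mcm3 the P15 and 8-week mice overlapped, for Mcm4 they did so through P15 male 1 and 8 weeks female 3, and the second fall was smaller than the first in both. From P6 to 8 weeks the log2FC was -3.94 ± 0.13 (SE) for Mcm5 (FDR 1.55e-22), -3.55 ± 0.12 for Mcm2, -3.40 ± 0.08 for Mcm6, -2.99 ± 0.09 for Mcm7, -2.39 ± 0.09 for Mcm4 and -1.70 ± 0.10 for Mcm3 (FDR 8.74e-16). Exons of Mcm7 overlap the miRNA genes Mir25 and Mir93 on the same strand by 84 and 88 bases, and how this affects its counts was not tested.

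The ring holds 1 copy of each subunit, so the levels of the 6 transcripts were also set side by side per length. RPKM (CPM divided by the length of the joined exons in kilobases) spanned 19.3 (Mcm2) to 49.7 (Mcm3) at P6, a ratio of 2.58, and 1.66 (Mcm2) to 15.3 (Mcm3) at 8 weeks, a ratio of 9.24. The joined exons were those of all annotated transcripts, at 6956 bases for Mcm2 and between 3589 (Mcm4) and 4666 (Mcm6) for the others. Ranks and ratios between genes per length, here and below, therefore depend in part on the annotation. Within single mice Mcm3 stood at 1.054 to 1.29 times Mcm5 per length at P6, at 1.24 to 2.67 times at P15 and at 4.48 to 7.25 times at 8 weeks. The pair was picked as the smallest and the largest fall of the ring, so this is a description.

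**Figure D3:**
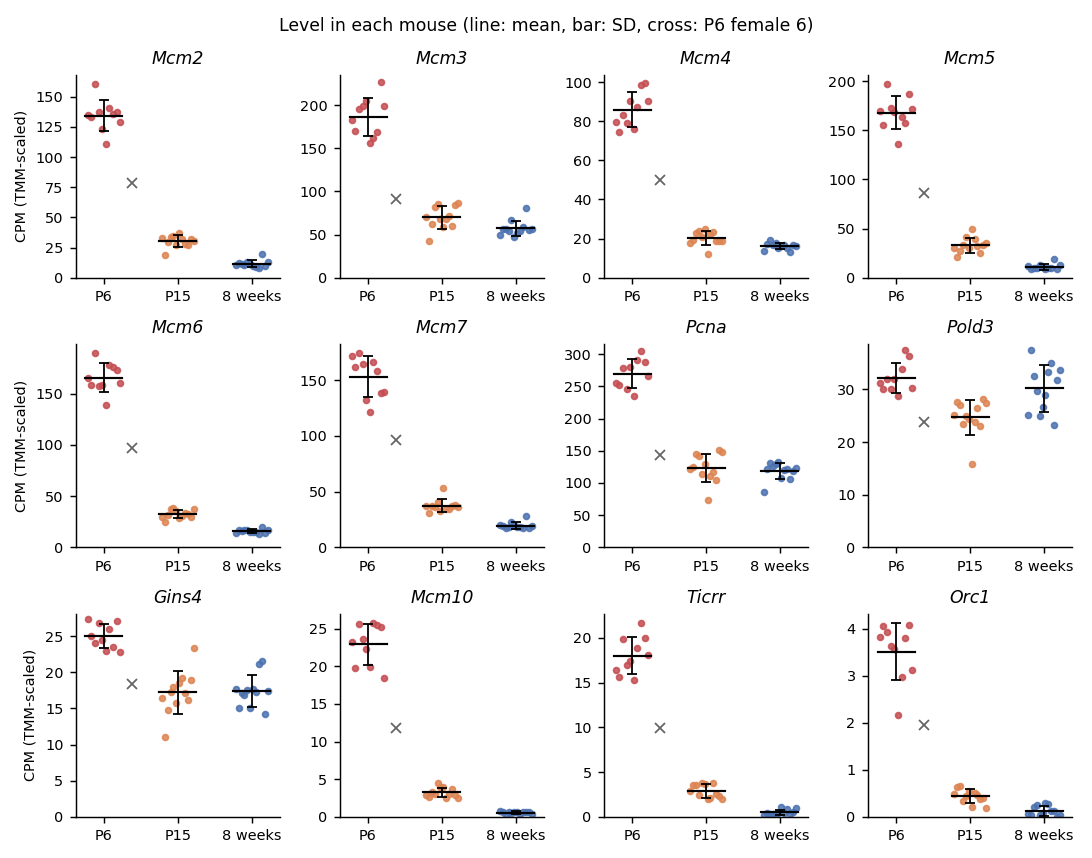
Level of 12 of the genes in each mouse at P6 (n = 10), P15 (n = 12) and 8 weeks (n = 12), in TMM-scaled CPM on linear axes from 0. Each circle is a mouse, lines and bars give the mean and the SD, and the cross is P6 female 6, which is in no mean. In Pcna the P15 and 8-week mice overlap, in Pold3 the 8-week mice reach the P6 range, and Mcm10, Ticrr and Orc1 are close to 0 at 8 weeks.

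Origin recognition was represented by Orc1, the cycle-regulated large subunit, and Orc6. Orc1 had the lowest level of the 45 genes at every age when taken per length. It ran from 2.16 to 4.08 CPM (median 3.71) at P6, from 0.182 to 0.664 (median 0.454) at P15 and from 0 to 0.284 (median 0.0991) at 8 weeks, where the libraries held between 0 and 9 counts. Its fall by P15 was a log2FC of -3.03 ± 0.27, and that to 8 weeks was -4.80 ± 0.31 (FDR 4.22e-15). A level of 3 counts is 0.0770 to 0.129 CPM in these libraries, so the adult level of Orc1 lies at the limit of what this depth can show. Orc6 fell by 1.60 on the log2 scale and was still at 7.002 ± 1.022 CPM (SD, n = 12) at 8 weeks.

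Of the genes that load the helicase, Cdc6 fell most. Cdc6 ran from 7.59 to 14.97 CPM (median 11.96) at P6, from 1.37 to 3.26 (median 2.51) at P15 and from 0.321 to 0.937 (median 0.529) at 8 weeks, with no overlap between ages. Its log2FC was -2.26 ± 0.16 in the first step and -2.15 ± 0.17 in the second, so that 51.9% ± 8.4 (SD over the 12 P15 mice) of its log2 fall was complete by P15. Cdt1, the second loader, kept more, at 22.04% of its P6 level at 8 weeks, and Gmnn, which encodes the Cdt1 inhibitor geminin, kept 13.2%. The DDK kinase pair fell as well, with log2FC from P6 to 8 weeks of -2.29 ± 0.19 for the catalytic subunit Cdc7 and -2.16 ± 0.16 for its partner Dbf4.

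The activators of the helicase ranged from the largest falls of the list to one of the smallest. Mcm10, which helps the helicase to separate and start, ran from 18.5 to 25.7 CPM (median 23.4) at P6, from 2.54 to 4.48 (median 3.07) at P15 and from 0.234 to 0.823 (median 0.576) at 8 weeks. Ticrr, which brings the firing machinery to the loaded ring, ran from 15.3 to 21.6 CPM (median 17.7), from 1.96 to 3.81 (median 2.69) and from 0.192 to 1.04 (median 0.414). In both genes the 3 ages did not overlap. They had the 2 largest falls of the list, a log2FC from P6 to 8 weeks of -5.41 ± 0.16 (FDR 1.03e-23) for Mcm10 and -5.25 ± 0.18 (FDR 2.45e-22) for Ticrr, and at 8 weeks they stood at 2.35% and 2.78% of their P6 level. In neither gene were both steps told apart, with 52.9% ± 5.0 and 51.5% ± 7.2 of the log2 fall complete by P15.

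The GINS complex, a brace of the active helicase, was split. Gins1 and Gins2 fell to 17.7% and 9.94% of their P6 level at 8 weeks. Gins4 ran from 22.8 to 27.3 CPM (median 24.7) at P6, from 11.0 to 23.4 (median 17.2) at P15 and from 14.2 to 21.5 (median 17.4) at 8 weeks. Gins3 ran from 3.89 to 6.51 CPM (median 4.75), from 0.911 to 3.62 (median 2.87) and from 2.44 to 4.09 (median 3.36). Its lowest P15 value was that of male 1, with the next mouse at 2.61. Both fell by P15 (log2FC -0.55 ± 0.08 and -0.78 ± 0.15), and their changes from P15 to 8 weeks, 0.02 ± 0.08 and 0.20 ± 0.15, did not pass the test. In single mice Gins4 stood at 2.08 to 2.76 times Gins2 per length at P6 and at 12.9 to 29.3 times at 8 weeks, a pair picked for its unequal falls. Cdc45, the third part of the active helicase, fell to 8.81%, with a log2FC of -1.39 ± 0.14 after P15.

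Polymerase alpha and primase, which lay down the primers, fell mainly by P15. The log2FC of the 4 genes in the first step lay between -2.20 (Prim1) and -1.01 (Pola2), and in the second between -0.82 and -0.05. Prim2 was among the genes that had levelled off by P15, with 35.8% of its P6 level at P15 and 34.5% at 8 weeks.

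Of the leading-strand polymerase epsilon and the lagging-strand polymerase delta, the subunits fell unequally. Pole, the catalytic subunit of epsilon, ran from 43.3 to 56.4 CPM (median 48.9) at P6, from 5.602 to 10.4 (median 7.41) at P15 and from 1.22 to 2.66 (median 1.86) at 8 weeks, with no overlap between ages and a log2FC to 8 weeks of -4.71 ± 0.13 (FDR 6.69e-25). Pole2, a non-catalytic subunit, fell by 2.52 on the log2 scale, and part of its exons lie in those of another gene, Gm49384. The small subunits Pole3 and Pole4, not on the list of 45, had log2FC of -1.76 and -0.47. Of delta, the catalytic subunit Pold1 kept 31.2% of its P6 level, Pold2 kept 43.9% and Pold3 kept 93.8%.

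Pold3 was the one gene without a fall over both steps. It ran from 28.8 to 37.4 CPM (median 31.6) at P6, from 15.7 to 28.1 (median 24.96) at P15 and from 23.2 to 37.5 (median 30.7) at 8 weeks. The P15 mice lay below every P6 mouse, and the 8-week mice overlapped both. Its log2FC was -0.37 ± 0.09 from P6 to P15 (FDR 4.76e-04), 0.29 ± 0.08 from P15 to 8 weeks (FDR 0.00493) and -0.08 ± 0.09 over both (FDR 0.397). The rise did not pass with neural markers as a covariate (0.12, FDR 0.474), and with libraries scaled by total counts the change over both steps was a fall of -0.22 (FDR 0.0335). Pold2 ran from 34.9 to 46.1 CPM (median 39.4), from 12.2 to 32.0 (median 18.9) and from 11.9 to 27.2 (median 16.9), and its second step did not pass the test (log2FC -0.14 ± 0.10).

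Pcna, the sliding clamp that holds polymerases on DNA and also serves repair, was the most abundant of the 45 transcripts per length at every age. It ran from 236 to 304 CPM (median 272) at P6, from 74.1 to 150.4 (median 123) at P15 and from 86.2 to 132 (median 122) at 8 weeks. By P15 it had completed 96.5% of its log2 fall, with a log2FC of -1.12 ± 0.09 in the first step (FDR 1.89e-12) and -0.05 ± 0.08 in the second (FDR 0.605), and the sign of the second changed to 0.04 without P15 males 5 and 6. In the fit with neural markers as a covariate the second step passed instead, at -0.36 (FDR 0.0134). The annotation holds processed copies of Pcna elsewhere in the genome, and the flags given for the counting do not ask for reads with several matches, so reads shared with a copy may be missing from its counts. Of the clamp loaders, Rfc2 ran from 68.0 to 80.3 CPM (median 75.3), from 33.2 to 54.2 (median 44.0) and from 34.6 to 62.0 (median 41.5), a log2FC of -0.83 ± 0.08 over both steps. Rfc3, Rfc4 and Rfc5 kept 34.4%, 16.2% and 21.9%, and Dscc1, of the loader that serves cohesion, kept 14.5%.

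The enzymes that finish Okazaki fragments fell by log2FC of -2.96 ± 0.08 (the ligase Lig1), -2.33 ± 0.13 (the nuclease Dna2) and -1.98 ± 0.10 (the flap nuclease Fen1). Rpa1, the large subunit of the protein that coats single-stranded DNA in replication and repair, ran from 93.2 to 111 CPM (median 103) at P6, from 44.9 to 60.5 (median 52.8) at P15 and from 41.3 to 57.2 (median 47.0) at 8 weeks. Its fall of -1.08 ± 0.06 was past 0 (FDR 1.76e-17) and not past 2-fold (FDR 0.0934). Its partner Rpa2 fell by 1.82.

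The fork protection pair Timeless and Tipin, whose proteins bind each other, fell with different timing. Tipin ran from 32.7 to 38.4 CPM (median 34.95) at P6, from 4.52 to 11.0 (median 9.67) at P15 and from 7.44 to 9.38 (median 8.46) at 8 weeks, with 97.9% ± 17.8 of its log2 fall complete by P15. Timeless had completed 56.1% ± 4.5 and fell by a further 1.54 on the log2 scale after P15, with no overlap between the P15 and 8-week mice. Clspn, which carries the checkpoint signal at stalled forks, ran from 20.1 to 30.04 CPM (median 22.4), from 2.22 to 5.58 (median 3.91) and from 0.188 to 1.92 (median 1.03), again without overlap.

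Both genes of chromatin assembly factor 1, which places histones on new DNA, fell in each step. Chaf1b ran from 19.3 to 35.4 CPM (median 26.9) at P6, from 1.74 to 4.15 (median 3.48) at P15 and from 0.494 to 2.89 (median 0.979) at 8 weeks, and the P15 and 8-week mice overlapped through 8 weeks male 4 alone (the next at 1.69). Its log2FC over both steps was -4.63 ± 0.23 (FDR 3.79e-18), next to -4.45 ± 0.14 for Chaf1a.

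The second question was which genes stayed expressed in the adult. At 8 weeks 37 of the 45 genes had at least 0.5 CPM in each of the 12 mice, a share close to the 79.8% of all genes tested. The 8 below it in at least 1 mouse were Orc1, Cdc6, Mcm10, Ticrr, Pole2, Dscc1, Clspn and Chaf1b. With a minimum of 1 CPM the number was 35, and 44 genes, all but Orc1, had more than 3 counts in each mouse. Per length, the highest at 8 weeks were Pcna (49.4 ± 5.4 RPKM, SD, n = 12), Mcm3 (15.3 ± 2.3), Gins4 (12.9 ± 1.6), Pold2 (9.22 ± 2.14) and Rpa1 (8.69 ± 0.82). Pcna and Mcm3 held the first and second rank at P6 as well, while Gins4 had moved from rank 13 to rank 3, and Mcm5 from rank 3 to rank 18. The lowest were Orc1 (0.0354 RPKM), Ticrr (0.04999), Mcm10 (0.0698), Cdc6 (0.108) and Clspn (0.142). Pcna stood above 94.9% of all genes tested at 8 weeks, and Orc1 above 1.73%.

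**Figure D4:**
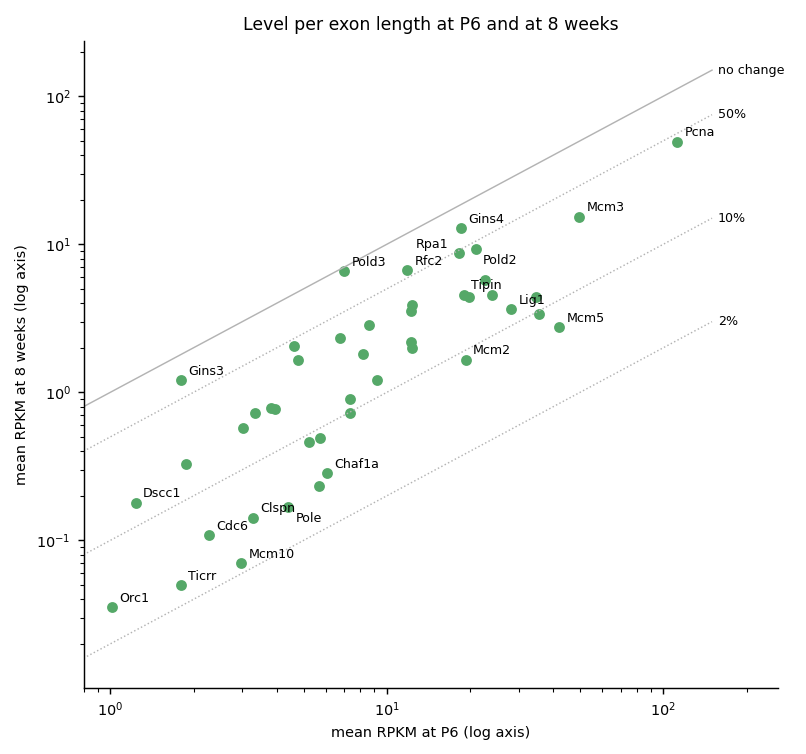
Mean RPKM of the 45 genes at P6 (x axis, n = 10) and at 8 weeks (y axis, n = 12), both on log axes, with lines for no change and for 50%, 10% and 2% of the P6 level. Pold3 lies just under the line of no change, Pcna just under 50%, and Mcm10, Ticrr and Orc1 just above the line of 2%.

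Other lists give the fall a setting. Of 35 further replication genes, 28 fell and 2 rose from P6 to 8 weeks, 15 fell by more than 2-fold, and the median log2FC was -0.89. The largest falls were those of Pclaf, a PCNA-binding factor (log2FC -6.34), the methylation reader Uhrf1 (-5.37) and Dtl, which targets Cdt1 for destruction (-5.28). The origin recognition subunits not on the list of 45 did not fall as far as Orc1, with log2FC of -0.48 for Orc2 (FDR 6.97e-04), 0.09 for Orc3 (FDR 0.511), 0.47 for Orc4 (FDR 0.00969) and 0.15 for Orc5 (FDR 0.0528), against -4.80 for Orc1. Pold4, the small subunit of polymerase delta, rose by 0.56 (FDR 2.14e-05).

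Of 30 mitosis genes, among them Mki67 and Top2a, 29 fell from P6 to 8 weeks and 28 by more than 2-fold, with a median log2FC of -2.54 in the first step, -2.57 in the second and -5.07 over both. The remaining gene, Pttg1, rose in both steps, with a log2FC of 1.01 from P6 to 8 weeks (edgeR, FDR 9.93e-12). A larger log2 fall in the first step was called in 3 of these 30 genes and in 36 of the 45 replication genes. A difference of that sign was also called in 24 of the 35 further replication genes, and the opposite in 1. Of those 35, 14 fell by more than 2-fold by P15 and 4 after it. After P15, 26 of the 30 mitosis genes and 12 of the 45 replication genes fell by more than 2-fold. The mean log2 CPM of the mitosis genes was between 5.32 and 5.71 in the P6 mice and between 0.65 and 1.16 at 8 weeks. For the 45 replication genes it was between 4.88 and 5.19, and between 2.33 and 2.66.

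The mean log2 CPM of the 45 genes was set beside the markers of other cells mouse by mouse. Within P6, the mouse with the fewest granule cell progenitor markers (male 1, mean log2 CPM 1.63) had a mean over the 45 genes of 5.07, and the mouse with the most (male 4, 5.70) had 5.19. P6 male 3 (5.53), female 3 (5.37), female 1 (5.30) and female 2 (5.16) had 5.18, 5.19, 5.14 and 5.04, and male 5 (2.71) had 5.16. At P15 the mice with the most, female 2 (4.02) and male 1 (3.90), had the lowest means of the 45 genes, 3.09 and 3.02. P15 males 5 and 6 had the lowest granule cell progenitor markers (1.17 and 0.49) and means of 3.27 and 3.22, inside the P15 range of 3.02 to 3.46. Without those males the numbers of genes that fell were 45, 34 and 44 for the first step, the second and both. With the mean of neuron and neural progenitor markers as a covariate they were 45, 34 and 43, and those past 2-fold 36, 9 and 38. Of the other lists, from P6 to 8 weeks 4 of 6 neuron markers fell and 1 rose, 6 of 6 of oligodendrocyte precursors fell, 4 of 6 astrocyte markers rose and 1 fell, 4 of 9 of monocytes and macrophages fell and 2 rose, 7 of 9 tested of lymphocytes and neutrophils rose and 1 fell, and 2 of 7 of endothelial cells and pericytes rose. Of the 5 erythroid markers, which mark red blood cells, 5 rose by P15 and 5 fell after it, with median log2FC of 1.204 and -1.46, and their summed level was 1120 to 4353 CPM at P6, 3138 to 7925 CPM at P15 and 772 to 4055 CPM at 8 weeks. The covariate held markers of neurons and neural progenitors alone, and those of the progenitors fell with age as the 45 genes did. It therefore cannot tell those cells from age and does not cover the other cell types. The part of other cells in the fall of the 45 genes was not tested.

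**Figure D5:**
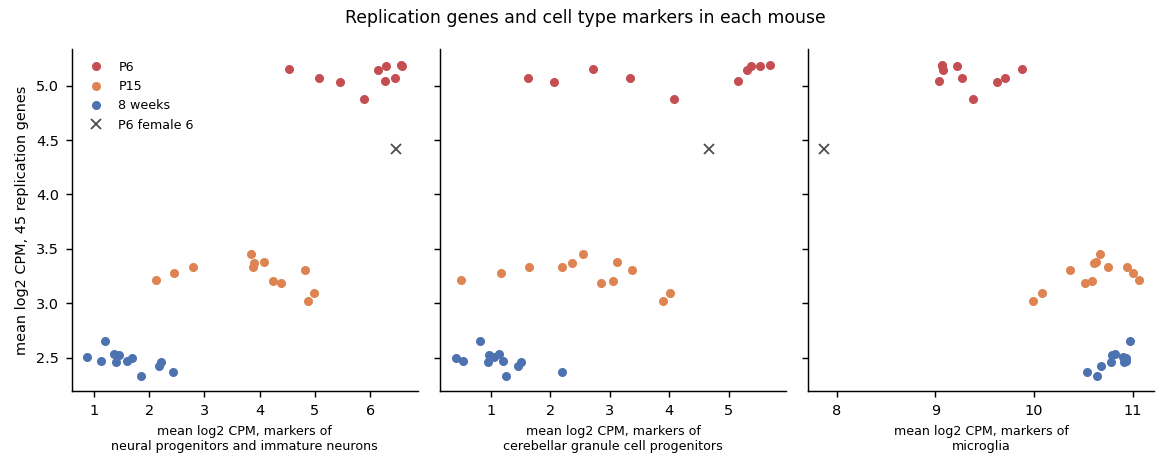
Mean log2 CPM of the 45 replication genes in each of the 35 mice (y axis) against the mean log2 CPM of the markers of neural progenitors and immature neurons, of cerebellar granule cell progenitors and of microglia (x axes), by age. The 3 ages form separate levels on the y axis, with P6 mice at 4.88 to 5.19 across granule cell markers from 1.63 to 5.70. The cross is P6 female 6, at 4.42.

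Between the sexes no member was called at any age in the 34 mice. Over all genes tested 0.0511%, 0.0681% and 0.114% were called at P6, P15 and 8 weeks (edgeR, FDR below 0.05). In age order, 0, 7 and 2 of the 45 genes had an unadjusted p below 0.05, beside 1250, 3200 and 518 of all 17612 genes. Limma-voom and DESeq2 also called 0 at P6 and at P15. The lowest FDR at P15 was 0.252, for Cdc7. At 8 weeks it was 0.0853, for Ticrr, which ran from 0.3003 to 1.04 CPM in males and from 0.192 to 0.429 CPM in females. The counts behind these values were 8 to 33 and 7 to 14, and the groups overlapped, with a log2 difference of male minus female of 1.10 ± 0.25. DESeq2 called this 1 difference (FDR 0.0222) and limma-voom did not (FDR 0.924), and edgeR called it without 8 weeks male 4 (1.24, FDR 0.0110). Ticrr was too low to be tested with the 8-week mice fitted alone or with at least 10 counts required in every mouse. The fall from P6 to 8 weeks differed between the sexes in 0 of the 45 genes by edgeR, as in 0% of all genes, with 2 of the 45 and 898 of all 17612 at an unadjusted p below 0.05, and 0 of the 45 called by limma-voom or DESeq2.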

How the data were processed

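Messenger RNA of CD45+ cells from 35 mice was analysed, 1 library per mouse. According to the paper and the labels, the authors aligned reads with STAR to GRCm38 (mm10) and counted fragments by strand on genes with featureCounts. The authors deposited whole-number counts per gene, neither normalised nor filtered, and the annotation release was not given in the sources used here. Names, exon lengths and overlaps came from GENCODE M21, and promoter sequences from RefSeq (GRCm38.p6), which matched 35 of 45 genes.

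A gene was tested where 5 or more mice reached 0.5 CPM (17612 genes), after TMM scaling. An edgeR 4.0.16 quasi-likelihood model (R 4.3.3) fitted 1 mean for each of 6 groups (age by sex), and age contrasts averaged the sexes. Changes were tested with glmQLFTest and, for 2-fold, glmTreat, with FDR over all genes. Tests were two-sided. Standard errors follow from the F statistic, and levels are TMM-scaled CPM (log2 with a prior count of 2). The share of a fall reached by P15 is a mean over the 12 P15 mice on the log2 scale. The scripts were run on simulated counts with known changes first. The alternatives included limma-voom (limma 3.58.1) and DESeq2 1.42.0. The 45 genes, the comparison lists, the markers and the promoter words were chosen with earlier results of these data known. Members described mouse by mouse were the 5 largest and 5 smallest changes, the 5 highest and 5 lowest RPKM at 8 weeks, any that rose, the 3 largest and 3 smallest shares reached by P15, MCM2-7 and Pcna. No 2 libraries of a group were copies (lowest chi-square per gene 11.8 over 85 pairs). PCR copies cannot be told from molecules here, so the floor of 3 counts covers counting error only.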

Additional observations from a re-analysis of the deposited data

Results flagged for a closer look

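In the 10 P6 mice, 5 of the 45 genes had 1 mouse apart from the others by Dixon's ratio (its gap to the nearest mouse over the whole range, on log2 CPM, above 0.466), which chance gives in about 1 of 20 groups. The share over all genes tested was not computed, so whether this number is usual for these libraries is not known. P6 male 2 was the lowest for Orc1 (2.16 CPM against 2.98 to 4.08 in the others, ratio 0.505), for Gmnn (10.8 against 12.7 to 15.2, ratio 0.473) and for Lig1 (103 against 117 to 134, ratio 0.482). P6 male 3 was the highest for Cdc45 (26.2 against 15.1 to 19.2, ratio 0.558), and P6 female 3 the highest for Pold1 (77.9 against 48.3 to 62.0, ratio 0.479). In these 5 genes the mouse apart still lay above every P15 mouse. Ages with 12 mice were not examined in this way, although single mice also stood apart there. P15 male 1 had 0.911 CPM of Gins3 (the next mouse 2.61), 1.11 of Pola1 (3.76), 74.1 of Pcna (105) and 53.2 of Mcm7 (40.6), and 8 weeks male 4 had 19.7 of Mcm2 (13.3) and 2.89 of Chaf1b (1.69). The test of a different fall in the sexes called none of the 45 genes.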

How the results depend on the processing

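The counts of genes that fell, past 2-fold or not, and the count with a larger first step kept within 1.5 times their main value under each alternative run (all 35 mice, 2 other scalings, limma-voom, DESeq2, no filter, at least 10 counts in every mouse, compared ages alone, age without sex, the replicate block, a covariate of neural markers, omission of each P6 female, and, chosen after seeing the data, P15 males 5 and 6, P6 male 2, P15 male 1, P15 female 2 or 8 weeks male 4 left out), except that compared ages alone give no test of the steps. Still expressed at 8 weeks were 37 genes, and 35, 44 and 38 with 1 CPM, with more than 3 counts and without TMM. The median log2FC from P6 to 8 weeks moved from -2.39 to -2.52 with scaling by total counts, which shifts the median of all genes by -0.14, and to -2.65 with neural markers as a covariate. It was between -2.44 and -2.37 with 1 mouse left out. Without P6 male 2, P15 male 1, P15 female 2 or 8 weeks male 4, 45, 36 and 44 genes fell in the first step, the second and both in each fit, 35 to 36, 11 to 12 and 40 to 41 by more than 2-fold, and 36 to 39 had a larger first step. The sex difference at 8 weeks was called in 1 gene by DESeq2 and in 1 without 8 weeks male 4 (0 to 1 with 1 mouse left out), Ticrr in both. The change of Gins4 from P15 to 8 weeks, 0.019 (0.019 also without P6 female 1), became -0.19 with neural markers as a covariate, and -2.47e-04, -6.04e-05 and -1.47e-04 without P6 female 2, 3 or 5, -0.0082 without P15 male 1, -0.040 without P15 female 2 and -0.0037 without 8 weeks male 4, and that of Pcna, -0.05, became 0.043 without P15 males 5 and 6. Of the other changes of single genes, 15 passed no longer and 2 newly passed, against 2744 values that kept their direction and call. After P15, neural markers as a covariate moved Cdc7 from -0.78 to -0.07, Orc6 from -0.40 to -0.10, Rfc4 from -0.47 to -0.24 and Pold3 from 0.29 to 0.12, and these passed no longer. Pola2 (-0.19 to -0.14 where lost), Rpa1 (-0.15 to -0.13) and Dscc1 (-0.55 and -0.49) lay near the threshold, with main values of -0.18, -0.14 and -0.56. Gins3 from P6 to 8 weeks lost its call with the covariate at a larger fall (-0.78 against -0.58). With at least 10 counts in every mouse 39 of the 45 genes were tested, and 30 of them fell after P15. The mice share numbers across groups and are different animals. With the number as a replicate block 45, 36 and 44 genes fell in the first step, the second and both, 36, 11 and 40 by more than 2-fold, and 38 had a larger first step. The block changed no call of the sexes. Over 80 pairs of same-numbered mice the correlation of deviations from the group means ran from -0.54 to 0.69 with a median of 0.03, and 2 mice correlated best with their own number. Depth limits the adult level of Orc1, with 0 to 9 counts.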
